A study of Solanum lycopersicum with 24 samples.

Results

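These data describe 200 tomato genes with the largest rise from the wild-type vegetative meristem to the lowest of the later stages sampled. They were chosen from the wild-type libraries alone. The mean RPKM (reads per kilobase of gene, scaled to the mapped reads of the library) of the 3 wild-type libraries was taken at each stage. Among the 15915 genes with a highest wild-type stage mean of at least 2 RPKM, the score was log2 of the lowest later stage mean plus 0.5 over the vegetative mean plus 0.5. The 200 genes with the highest score are 200 of 34075 genes listed. Because wild-type values chose them, those values are given as a description, and every test of the rise from the vegetative stage below uses the mutant libraries, which the choice did not use.

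The samples are shoot meristems of Solanum lycopersicum, either wild type (WT) or slful, a line whose genotype the legend gives as ful1/ful2/mbp10/mbp20. These are 4 MADS-box genes of the FRUITFULL type, and the sources used here do not say what the mutations are. Each genotype was sampled at 4 stages with 3 libraries each. The stages are VM, a vegetative meristem, TM, a meristem in transition, FIM, a floral together with an inflorescence meristem, and SFIM, that same structure on the first sympodial shoot. Plants were grown in a greenhouse under normal conditions, without treatment, and their age is not stated in the sources used here. Each library pooled 30 to 60 meristems, so a library is not a single plant, and although the design text calls the libraries of a stage biological replicates, it does not say whether they came from separate plantings. P-values measure the spread between these libraries, which may be technical.

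At the floral transition a shoot meristem stops making leaves and becomes an inflorescence and floral meristem. In tomato the first meristem ends in a flower, and growth goes on from a sympodial meristem beside it, so that SFIM belongs to a later shoot and is not the direct successor of FIM. MADS-box transcription factors are the best known regulators of this change. FRUITFULL-like proteins promote meristem maturation, APETALA1-like proteins such as MACROCALYX act in flower and inflorescence identity, and AGAMOUS-type proteins specify stamens and carpels. Cytokinin signalling and breakdown are known to shape meristem size and activity.

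The values put depth, rounded, between 29360000 and 32660000 reads for VM and SFIM, and between 12930000 and 90370000 reads for TM and FIM. VM and SFIM columns were exported with a median of 10 decimals and the TM and FIM columns with 15, so there are 2 export formats. The comparison of SFIM with VM and that of FIM with TM stay within a format, whereas TM with VM, FIM with VM and SFIM with FIM cross it, and there the stage and the export format cannot be told apart. Replicates of slful FIM were the most spread, with a median SD over genes of 0.233 on the log2 scale, against 0.140 for slful TM, 0.0921 for slful SFIM and 0.08 for slful VM. None of the marker words for meristem identity matched a described gene, so the labelled tissue was not checked in that way. The 3 described leaf genes, none of them among the 200, summed to 17.7 to 31.5 RPKM in slful VM, 49.6 to 54.5 in slful TM, 23.9 to 33.6 in slful FIM and 7.81 to 15.5 in slful SFIM, and in WT to 12.6 to 21.2 in VM, 47.0 to 162 in TM, 19.8 to 28.7 in FIM and 2.19 to 3.31 in SFIM. The 4 described trichome or epidermis genes, also outside the 200, summed to 2.76 to 3.06 RPKM in slful VM and 5.44 to 23.1 in slful TM, and to 0.896 to 3.08 in WT VM and 45.4 to 69.3 in WT TM. In slful they summed to 1.98 to 5.14 RPKM at FIM and 1.88 to 3.29 at SFIM. In WT they summed to 0.43 to 3.41 RPKM at FIM and 0.544 to 1.14 at SFIM. The 1 vascular gene was at 9.25 to 10.3 RPKM in slful VM and 15.0 to 37.8 in slful TM, and at 3.83 to 10.5 in WT VM and 4.53 to 40.8 in WT TM. This gene was at 5.39 to 19.35 RPKM in slful FIM and 3.83 to 12.5 in slful SFIM. In WT it was at 1.97 to 7.75 RPKM at FIM and 1.92 to 5.45 at SFIM. The 2 described floral organ genes, 1 of them among the 200, summed to 3.93 to 5.32 RPKM in slful VM and 10.002 to 13.6 in slful SFIM. Both the leaf and the trichome sums lay higher at TM than at VM in every library of both genotypes, and the part of all these lists in the results was not tested. Meristems were measured in bulk, so more cells of a type and more RNA per cell cannot be told apart.

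FRUITFULL-like MADS-box 1 (Solyc06g069430), the one targeted gene that the files describe by a FRUITFULL name, is 1 of the 200. Its WT values were 1.99, 2.20 and 2.46 RPKM at VM, 13.9, 25.0 and 18.5 at TM, 28.1, 30.3 and 34.8 in the FIM libraries and 19.7, 23.1 and 23.1 at SFIM. Its slful values were 1.13, 1.71 and 2.13 RPKM at VM, 8.52, 9.75 and 8.43 at TM, 11.5, 10.7 and 11.8 in the FIM libraries and 8.55, 8.89 and 9.38 at SFIM. Every slful library lay below every WT library at the 3 later stages, while at VM the genotypes overlapped. The transcript was still measured in the mutant, and since the kind of mutation is not stated, its level does not check the genotype. The gene described as a MADS box transcription factor (Solyc02g089210), also 1 of the 200, was placed among the 4 FRUITFULL-like loci by background knowledge and not by the files, and its values stand further on.

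In the WT libraries that chose them, the 200 genes had a median score of 1.86, from 1.26 to 6.82. The last 3 genes inside scored 1.27, 1.27 and 1.26 (Solyc02g089620, Solyc10g052470 and Solyc02g089690), and the first 3 outside scored 1.26, 1.25 and 1.25 (Solyc02g068250, Solyc11g016970 and Solyc03g119530). The rule asks for a rise and not for silence at VM. The WT VM mean was under 0.5 RPKM for 84 genes, from 0.5 to under 5 for 81, and at least 5 for 35, so "switched on" describes only some of them and "raised" describes the others. In 13 genes all 3 WT VM libraries held 0 reads, and in 14 genes all 3 slful VM libraries did. The shares over the eligible genes were 0.17% and 0.245%. The WT count is a description, since WT values chose the genes.

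**Figure D1:**
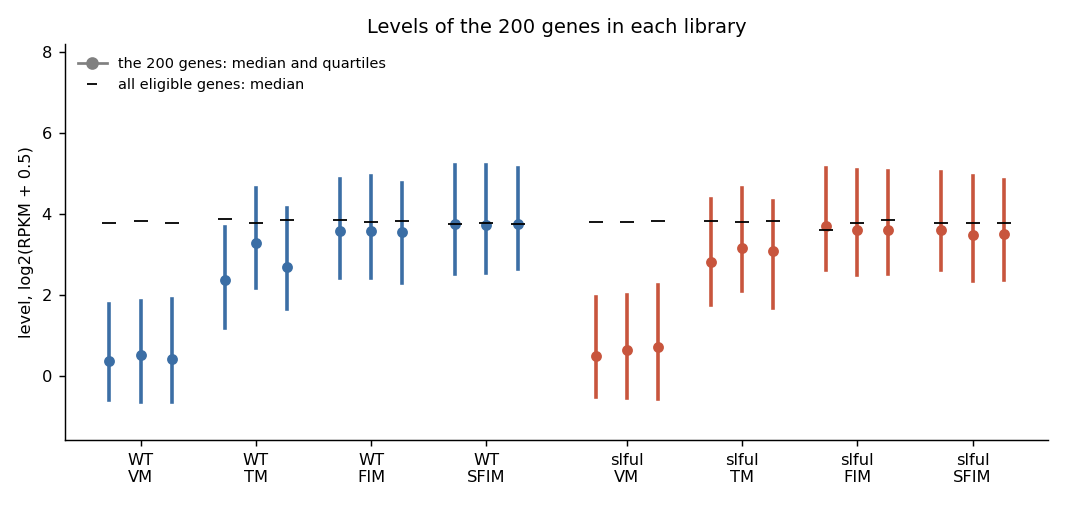
Level of the 200 genes in each of the 24 libraries, as log2(RPKM + 0.5): points are medians, bars run from the lower to the upper quartile, and dashes are the median of the 15915 eligible genes. The gene medians sit far below the dash in all VM libraries and near it at FIM and SFIM, in both genotypes, with WT TM replicate 1 the lowest of the later libraries.

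The median over the 200 genes was 0.795 to 0.918 RPKM in the WT VM libraries and 0.910 to 1.13 in the slful VM libraries. It was 6.55, 8.36 and 7.99 RPKM in the 3 slful TM libraries, 12.5, 11.5 and 11.7 in the slful FIM libraries and 11.6, 10.7 and 10.8 in the slful SFIM libraries, while the median of all eligible genes ran from 11.6 to 14.2 over the 24 libraries. No later library overlapped a VM library in this median. WT TM was the most uneven group, with 4.63, 9.27 and 5.99 RPKM, and 161 of the 200 genes were lowest in its replicate 1 and 1 in its replicate 2. In slful TM 103 were lowest in replicate 1, 11 in replicate 2 and 86 in replicate 3. The shares over all genes were not counted. For most genes TM was the lowest later stage, in 162 genes in WT and 148 in slful. The WT score of those 162 genes thus rests on the uneven WT TM group.

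The genes chosen in WT rose in the mutant as well. Of the 200, 192 were called higher in slful TM than in slful VM (limma on log2(RPKM + 0.5), Benjamini-Hochberg adjusted p under 0.05), where 15.8% of the 18384 genes tested were called higher. For slful FIM against VM 192 were called higher, against 9.66% of all genes, and for slful SFIM against VM 197, against 19.3%. All 200 passed the filter on low values. With a change of at least 2-fold required as well, the counts were 188, 192 and 193, against 4.2%, 4.77% and 3.9% of all genes. No member was called lower in any of these 3 comparisons by limma, where 16.4%, 13% and 27.7% of all genes were, none at an unadjusted p under 0.05, and none by voom on recovered reads. These 3 comparisons share the slful VM libraries. Without slful FIM replicate 2 the FIM count was 138, and without replicate 3 it was 177.

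The median log2 difference over the 200 genes was 2.03 for slful TM against VM, 2.70 for FIM against VM and 2.54 for SFIM against VM, beside 0.00, -0.07 and -0.05 over all genes tested. With the 14 genes that had 0 reads in slful VM set at the limit that 3 reads per library allow, those medians were 2.04, 2.71 and 2.63. Every slful TM library was above every slful VM library in 194 of the genes, every FIM library in 198 and every SFIM library in 196, where the shares over all genes tested were 24.1%, 19.3% and 23.7%.

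**Figure D2:**
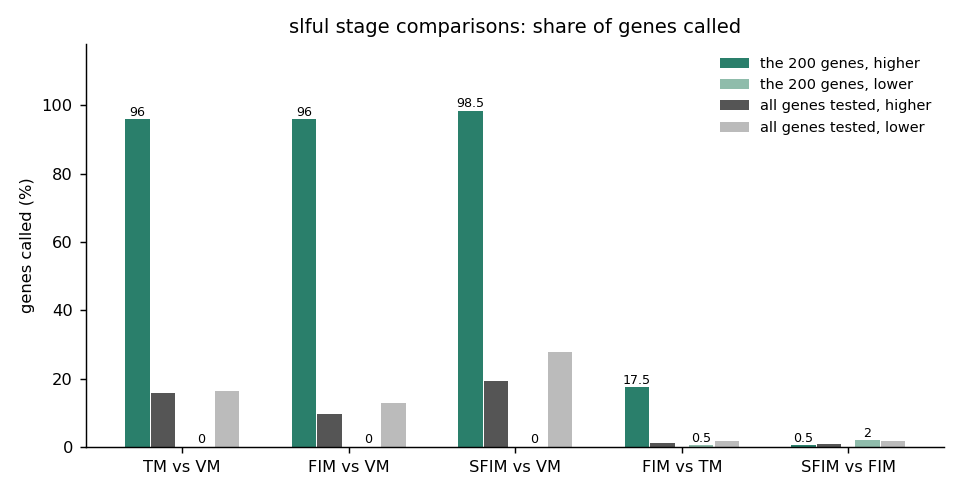
Share of genes called higher or lower (limma, adjusted p under 0.05) in 5 comparisons between slful stages, for the 200 genes (green) and for all 18384 genes tested (grey). The share called higher among the 200 is 96, 96 and 98.5% against VM, 17.5% for FIM against TM and 0.5% for SFIM against FIM.

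A MADS-box gene had the highest score among the described genes. A list of words for MADS-box genes, which takes in macrocalyx and AGAMOUS by name, matched 9 described genes. It matched 4 of the 200, and all 4 rose in slful at TM, FIM and SFIM against VM. Descriptions were deposited only for the 435 genes on the authors' slful versus WT sheets, so the described genes are not a fair sample of the 200.

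Macrocalyx (Solyc05g056620), an APETALA1-like regulator of inflorescence and sepal development, scored 4.60 in WT and 4.55 in slful. In slful it was at 4.96, 3.95 and 5.07 RPKM at VM, 134, 120 and 108 at TM, 274, 241 and 244 in the FIM libraries and 232, 247 and 253 at SFIM. In WT it was at 1.82, 1.31 and 3.77 at VM, 44.8, 95.4 and 62.0 at TM, 162, 168 and 181 in the FIM libraries and 243, 241 and 233 at SFIM. Every later library lay far above every VM library in both genotypes, and slful lay above WT in every library at VM, TM and FIM but overlapped it at SFIM. The slful differences from VM were 4.55 ± 0.10 at TM (log2 ± SE), 5.62 ± 0.16 at FIM and 5.57 ± 0.08 at SFIM, with limma adjusted p of 2.00e-12, 5.87e-11 and 1.73e-14.

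FRUITFULL-like MADS-box 1, whose library values stand above, rose in slful by 2.15 ± 0.18 at TM, 2.48 ± 0.28 at FIM and 2.16 ± 0.14 at SFIM on the log2 scale (limma adjusted p 1.23e-06, 2.86e-05 and 2.54e-08). Its score was 2.85 in WT and 2.13 in slful. Its mean was highest at FIM in both genotypes. The gene described only as a MADS box transcription factor (Solyc02g089210), which may be among the mutated loci as stated above, was at 14.3, 13.8 and 14.3 RPKM in slful VM, 69.0, 66.8 and 62.6 at TM, 70.0, 63.1 and 64.1 in the FIM libraries and 78.7, 78.2 and 77.9 at SFIM. Its WT values were 5.33, 5.33 and 5.57 at VM, 28.1, 53.0 and 42.6 at TM, 45.7, 51.9 and 52.4 in the FIM libraries and 51.6, 60.4 and 61.8 at SFIM. It was higher in slful than in WT in every library of each stage, while FRUITFULL-like MADS-box 1 was lower at the 3 later stages and overlapped at VM. Its slful rise was 2.19 ± 0.05 at TM and 2.43 ± 0.04 at SFIM (limma adjusted p 3.61e-12 and 4.52e-14).

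Tomato AGAMOUS 1 (Solyc02g071730), the floral organ identity gene of the set, was near 0 in the vegetative meristem. In slful it was at 0.0855, 0.0286 and 0.0867 RPKM at VM, 4.15, 4.11 and 4.72 at TM, 6.27, 4.54 and 2.04 in the FIM libraries and 9.36, 10.5 and 5.75 at SFIM. All later slful libraries lay above all VM libraries, and SFIM overlapped FIM. The differences from VM were 3.09 ± 0.23 at TM, 2.97 ± 0.36 at FIM and 3.96 ± 0.18 at SFIM (limma adjusted p 4.24e-07, 5.59e-05 and 7.95e-10). In WT the FIM libraries, at 2.06, 2.11 and 1.13 RPKM, lay below those of SFIM, at 10.7, 6.76 and 7.31.

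**Figure D3:**
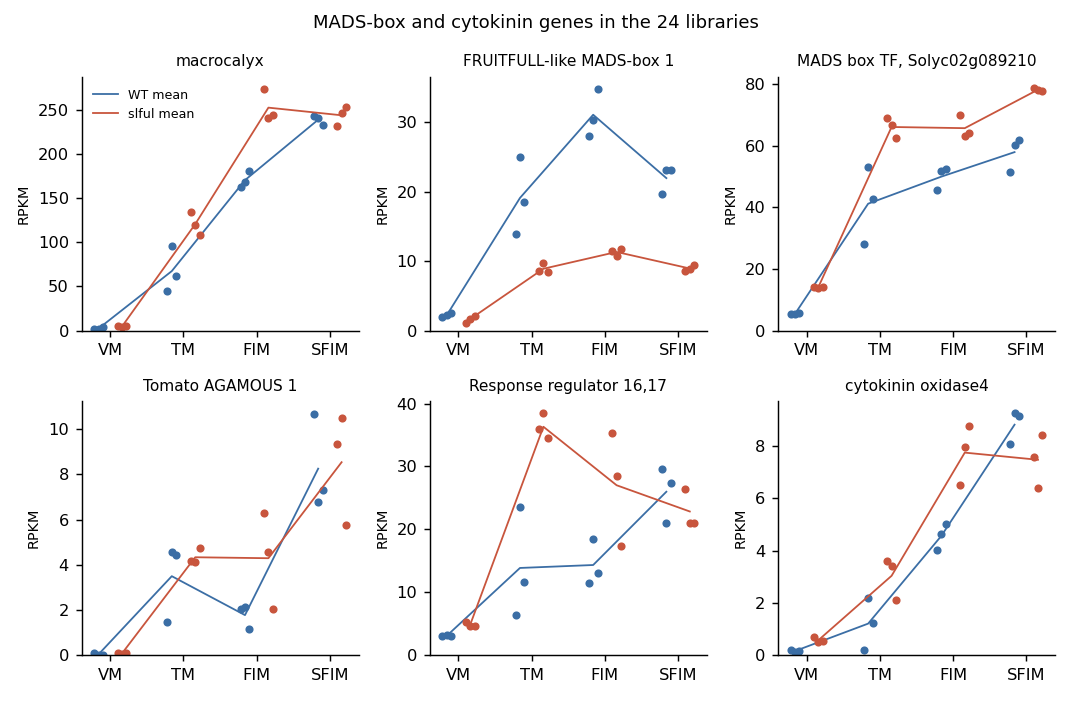
RPKM of 4 MADS-box genes and 2 cytokinin genes in the 24 libraries (points, 3 per genotype and stage; lines join group means; each vertical axis starts at 0 and has its own scale). FRUITFULL-like MADS-box 1 is lower in slful at TM, FIM and SFIM, while the MADS box transcription factor is higher in slful at all 4 stages, and macrocalyx reaches the same range in both genotypes at SFIM.

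Of 5 genes whose descriptions name cytokinin or a response regulator, 2 are among the 200, and both rose in slful at TM, FIM and SFIM. Tomato Response regulator 16,17 (Solyc06g048930), of the family that relays cytokinin signals, was at 5.25, 4.59 and 4.58 RPKM in slful VM, 35.9, 38.6 and 34.5 at TM, 35.3, 28.4 and 17.3 in the FIM libraries and 26.5, 21.0 and 21.0 at SFIM. Its slful mean was highest at TM, where 1 FIM library overlapped it, whereas in WT the TM libraries were at 6.35, 23.6 and 11.6 and the SFIM libraries, at 29.6, 20.9 and 27.4, were the highest on average. Its slful difference from VM was 2.80 ± 0.13 at TM and 2.13 ± 0.10 at SFIM (limma adjusted p 2.52e-09 and 1.41e-09). Cytokinin oxidase4 (Solyc04g080820), of the family that degrades cytokinin, was at 0.668, 0.494 and 0.532 RPKM in slful VM, 3.59, 3.42 and 2.09 at TM, 6.50, 7.98 and 8.79 in the FIM libraries and 7.59, 6.41 and 8.44 at SFIM. Its levels at FIM and SFIM overlapped and lay above every TM library. The difference from VM was 1.70 ± 0.16 at TM and 2.90 ± 0.12 at SFIM (limma adjusted p 5.25e-06 and 6.14e-10).

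Among the other described regulators, Homeobox leucine-zipper protein (Solyc08g066500), of a plant transcription factor family, was at 0.544, 0.594 and 0.356 RPKM in slful VM, 3.24, 3.20 and 2.35 at TM, and 2.08, 2.58 and 3.16 at SFIM. The later libraries did not overlap VM, and the SFIM difference was 1.63 ± 0.14 (limma adjusted p 4.88e-07). LOB domain-containing protein (Solyc02g085910), of a family that acts at organ boundaries, was at 1.19, 1.41 and 0.919 RPKM in slful VM, 2.13, 4.26 and 1.90 at TM, 8.22, 5.90 and 4.45 in the FIM libraries and 11.4, 4.64 and 3.88 at SFIM. It was called higher at SFIM (1.96 ± 0.28, limma adjusted p 6.68e-05), and at TM it missed the threshold (0.91 ± 0.36, limma adjusted p 0.0741), passing it at 1.03 without slful TM replicate 1. RING/U-box superfamily protein (Solyc06g007230), of a family of ubiquitin ligases, changed most after TM. It was at 0.0634, 0 and 0 RPKM in slful VM, 0.447, 0.547 and 0.809 at TM, 12.2, 8.43 and 9.61 in the FIM libraries and 9.66, 7.51 and 9.58 at SFIM.

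Patatin (Solyc08g006860), a lipid acyl hydrolase family known from tuber storage protein, was at 0.0735, 0.0246 and 0 RPKM in slful VM, 4.95, 7.51 and 4.72 at TM, 31.4, 33.5 and 57.9 in the FIM libraries and 11.7, 13.7 and 17.5 at SFIM. These 4 ranges did not overlap, with FIM highest. Caffeoyl-CoA O-methyltransferase (Solyc02g093270), an enzyme of lignin precursor synthesis, was at 4.70, 3.25 and 3.04 RPKM in slful VM, 36.5, 46.9 and 33.9 at TM, 34.8, 36.6 and 50.3 in the FIM libraries and 28.4, 32.7 and 34.4 at SFIM. Its slful TM libraries overlapped those of FIM and SFIM, no later library overlapped VM, and its SFIM libraries were all above those of WT, at 10.2, 16.3 and 13.7. The slful difference of SFIM from VM was 4.78 ± 0.14 for Patatin and 2.97 ± 0.13 for caffeoyl-CoA O-methyltransferase (limma adjusted p 1.11e-11 and 7.95e-10).

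Further enzymes rose in slful SFIM against VM by smaller or similar amounts (limma, log2 ± SE). NAD(P)-binding Rossmann-fold superfamily protein (Solyc01g091660) rose by 3.72 ± 0.09, HXXXD-type acyl-transferase (Solyc12g005430) by 2.51 ± 0.10, 2-oxoglutarate and Fe(II)-dependent oxygenase (Solyc02g062500) by 2.87 ± 0.13 and AMP-dependent synthetase/ligase (Solyc02g081360) by 2.43 ± 0.18. Peroxidase (Solyc10g076220) rose by 1.94 ± 0.20 from 0 reads in every slful VM library, a change of at least 16.4-fold from the limit of 3 reads per library to its lowest later mean. Polyphenol oxidase (Solyc08g074682) rose by 1.18 ± 0.13, and Alcohol dehydrogenase superfamily (Solyc12g096780) by 1.57 ± 0.16.

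Genes described as structural, or by a name whose role is not given here, rose as well. Glycine-rich cell wall structural protein-like (Solyc09g092700) rose by 3.35 ± 0.18 in slful SFIM against VM, Organ specific protein (Solyc07g016215) by 1.79 ± 0.17, PDDEXK-like protein (Solyc02g078150) by 3.65 ± 0.21, Cotton fiber protein (Solyc03g063550) by 4.12 ± 0.17, Sn-1 protein (Solyc04g007790) by 4.15 ± 0.10 and Hypersensitive response assisting protein (Solyc07g006560) by 2.53 ± 0.18, and limma called all 6 higher. Sn-1 protein was at 1.04, 1.16 and 1.50 RPKM in slful VM and at 28.4, 33.0 and 29.1 in slful SFIM, and its WT VM libraries, at 2.72, 2.19 and 3.83, were all above those of slful.

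Of the 37 described genes, 8 were more than 2 times higher in slful SFIM replicate 1 than in the next slful SFIM library, and none in replicate 2 or 3. These genes were singled out after their values were seen. Alcohol dehydrogenase (Solyc06g059740), a fermentation enzyme, was at 21.6, 19.8 and 18.4 RPKM in slful VM, 154, 141 and 127 at TM, 80.8, 89.3 and 61.4 in the FIM libraries and 406, 54.0 and 48.2 at SFIM. Hypoxia-responsive family protein (Solyc06g050870), named for its response to low oxygen, was at 0 in every VM library of both genotypes and at 83.2, 8.45 and 11.8 in slful SFIM. Early nodulin-93 (Solyc12g006680) was also at 0 in every VM library, and at 261, 33.7 and 24.5 in slful SFIM. In each of these 3 genes WT SFIM replicate 1 was also the highest of its group, for alcohol dehydrogenase at 309, 96.2 and 155 RPKM. Over all 200 genes, 18 of at least 1 RPKM were more than 2 times above the next library in slful SFIM replicate 1. None were so in replicate 2, and 1 was in replicate 3. By the same count WT TM replicate 2 held 16, against 1 in WT TM replicate 1 and 0 in WT TM replicate 3. The share over all genes was not counted, so these counts are not read as a trait of the 200. What set those libraries apart was not tested.

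Without slful SFIM replicate 1, the slful SFIM difference from VM went from 6.92 to 5.87 for Early nodulin-93, from 5.39 to 4.39 for Hypoxia-responsive family protein, and from 2.33 to 1.34 for Alcohol dehydrogenase. It went from 3.82 to 3.02 for the hypothetical protein Solyc02g090120, from 3.51 to 2.94 for Wound-responsive family protein (Solyc07g063640), from 1.96 to 1.51 for LOB domain-containing protein, and from 2.49 to 1.52 for the gene described as DNA polymerase epsilon catalytic subunit A (Solyc04g080540). These 7 were called with and without that library. Unknown protein Solyc10g050990, at 5.89, 0.160 and 0.165 RPKM in slful SFIM and at 0 in every VM library, was called at 1.50 ± 0.58 (limma adjusted p 0.0480). It was not called without that library (0.40) or without any 1 of the slful VM libraries, and its adjusted p ran from 0.00989 to 0.185 over the alternatives. By voom Early nodulin-93 also missed the threshold at SFIM (voom adjusted p 0.0815, where the alternatives in limma on log2(RPKM + 0.5) passed it). It missed the threshold by voom at TM and FIM as well (voom adjusted p 0.1045 and 0.1028). Hypoxia-responsive family protein and Solyc02g090120 missed it by voom at TM (voom adjusted p 0.0775 and 0.0567). Early nodulin-93 was at 9.58, 19.2 and 17.1 RPKM in WT TM and at 90.4, 27.5 and 27.3 in slful TM, so the genotypes did not overlap there, and its slful TM replicate 1 was the highest of that group.

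Wound induced protein (Solyc07g054780) was at 11.6, 6.16 and 5.30 RPKM in slful VM, 46.0, 37.0 and 28.9 at TM, 164, 86.0 and 60.8 in the FIM libraries and 44.4, 22.8 and 21.8 at SFIM, and rose at SFIM by 1.88 ± 0.28 (limma adjusted p 0.000103). Replicate 1 was highest in each of these slful groups. Of 3 genes in the defence list and 2 in the protease list, 3 were called higher in slful SFIM than in VM. The other 2, acidic endochitinase and Kunitz-like protease inhibitor, were the only described genes not called there.

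Acidic endochitinase (Solyc05g050130), a chitin-degrading defence enzyme, was at 2.58, 2.40 and 2.76 RPKM in WT VM, 6.85, 12.6 and 10.1 at TM, 9.61, 12.3 and 8.21 in the FIM libraries and 10.4, 9.08 and 10.8 at SFIM. In slful it was at 12.1, 14.9 and 14.5 RPKM already at VM, and then at 12.02, 37.3 and 19.1 at TM, 11.1, 7.43 and 8.98 in the FIM libraries and 22.5, 10.7 and 14.2 at SFIM. Its slful VM libraries lay above every WT VM library and in or above the range of the later WT libraries, and its slful FIM libraries lay below slful VM. The slful differences from VM were 0.56 ± 0.31 at TM, -0.58 ± 0.48 at FIM and 0.13 ± 0.24 at SFIM (limma adjusted p 0.184, 0.420 and 0.681). At TM it passed the threshold, at 0.94, without slful TM replicate 1, and at SFIM it was -0.15 without slful SFIM replicate 1.

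Kunitz-like protease inhibitor (Solyc03g098710) was at 0.190, 1.63 and 0.454 RPKM in WT VM and 1.46, 3.42 and 3.81 in slful VM, and at 4.02, 4.40 and 3.28 in slful SFIM. Its slful groups overlapped, and it was not called at TM, FIM or SFIM (-0.06 ± 0.39, 0.26 ± 0.60 and 0.44 ± 0.30). Its sign at TM and FIM depended on single libraries. The adjacent gene in the ID order, Kunitz trypsin inhibitor (Solyc03g098720), was at 0.0397, 0.797 and 0.805 RPKM in slful VM and 4.13, 2.43 and 2.30 in slful SFIM, and was called at SFIM (1.79 ± 0.37, limma adjusted p 0.00135). Leucine aminopeptidase A1 (Solyc12g010020), a wound-inducible peptidase, was at 0.468, 1.42 and 2.20 RPKM in slful VM, 3.49, 3.01 and 1.66 at TM, and 6.42, 8.16 and 7.93 at SFIM. It overlapped VM at TM (0.86 ± 0.39, limma adjusted p 0.106, passing at 1.19 without slful VM replicate 3) and was called at SFIM (2.22 ± 0.30, limma adjusted p 3.84e-05). The files do not say how reads of near-identical neighbours were shared out, so values of the adjacent Kunitz genes are uncertain.

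**Figure D4:**
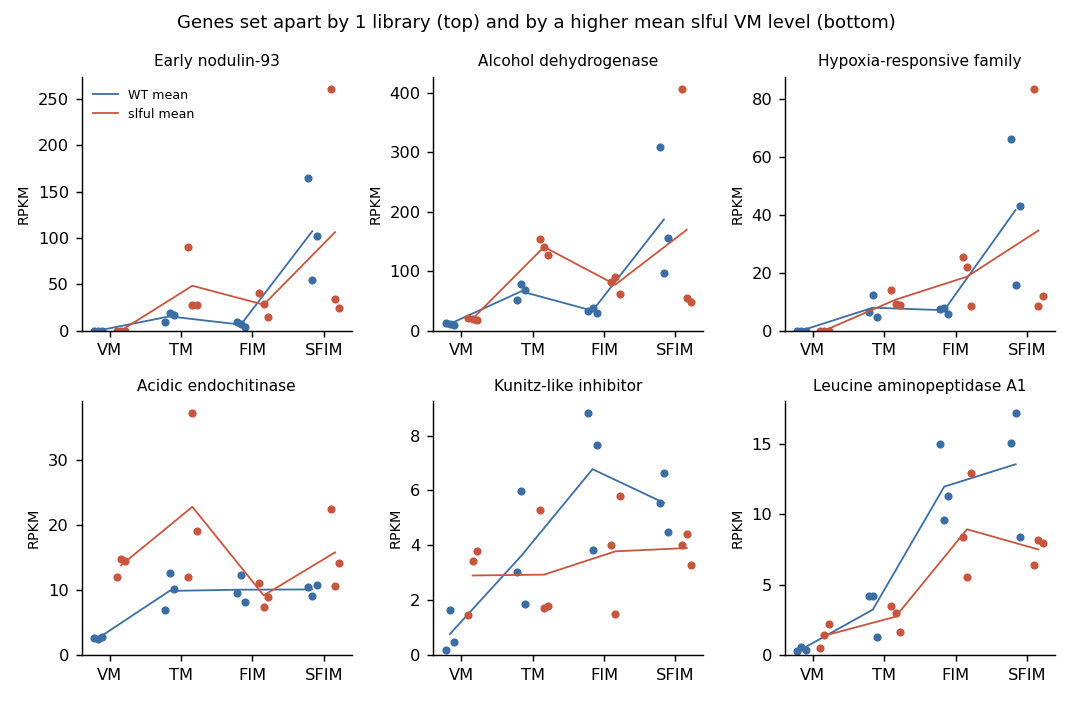
RPKM of 3 genes with a high slful SFIM replicate 1 (top) and of 3 genes whose mean slful VM level was higher than in WT (bottom), in the 24 libraries (points; lines join group means; each vertical axis starts at 0 and has its own scale). In the top row 1 slful SFIM library lies far above the other 2. In the bottom left panel the slful VM libraries of acidic endochitinase overlap those of slful TM and SFIM and lie above those of slful FIM. Its slful mean is highest at TM.

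The rule applied to the slful libraries in place of WT gave a list that shared 160 genes with this one, 80% of each list of 200. The slful score of the 200 genes had a median of 1.95, from -0.56 to 6.58. It was above 1 in 186 genes, where 1.95% of eligible genes had such a score, and above 0 in 199, where 25.9% did. The gene below 0 was acidic endochitinase. The slful score minus the WT score ran from -2.31 to 2.04 and stayed within 1 for 183 genes.

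**Figure D5:**
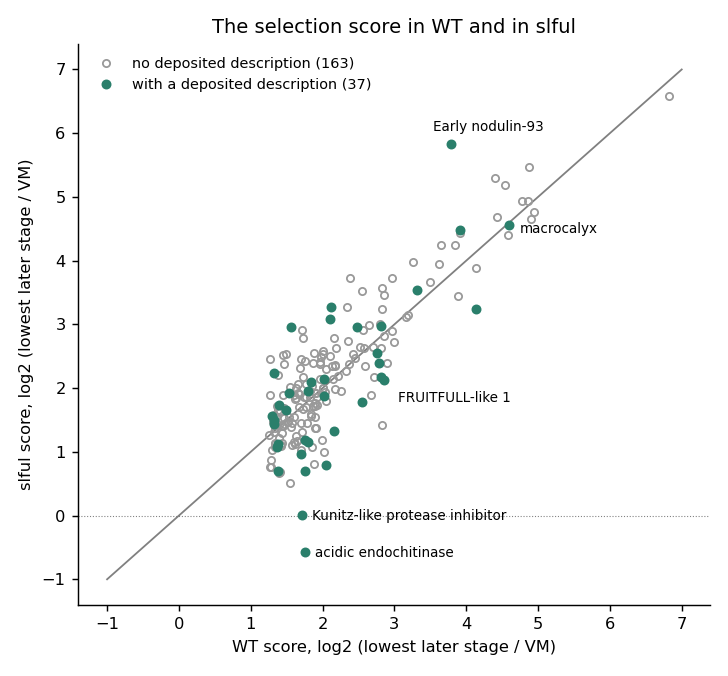
Selection score of the 200 genes in WT (horizontal) and slful (vertical), both log2 of the lowest later stage mean over the VM mean with 0.5 added to each; the line marks equal scores, filled points have a deposited description. Most points lie near the line. Acidic endochitinase lies below 0 in slful, Kunitz-like protease inhibitor lies just above 0, and Early nodulin-93 lies above the line.

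The slful score fell furthest below the WT score for acidic endochitinase, by 2.31, and Kunitz-like protease inhibitor, by 1.70. Next came Solyc09g008770, Leucine aminopeptidase A1, Solyc11g007200 and Endoribonuclease L-PSP family protein (Solyc07g064600), with differences of -1.40, -1.26, -1.07 and -1.06. Endoribonuclease L-PSP family protein was at 0.279, 0.882 and 0.169 RPKM in WT VM and 0.938, 2.05 and 1.78 in slful VM, and at 3.09, 3.83 and 3.75 and at 3.40, 3.85 and 3.12 in WT and slful SFIM. The genotypes thus differed at VM, without overlap, and overlapped at SFIM. The slful score lay furthest above the WT score for Early nodulin-93 (2.04), Sn-1 protein (1.41), Solyc06g074350 (1.33), Solyc04g008970 (1.20), Solyc02g089620 (1.19) and Cotton fiber protein (1.17). Cotton fiber protein was at 2.30, 7.52 and 5.90 RPKM in WT TM and 8.82, 8.27 and 11.9 in slful TM, without overlap.

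Not called in slful SFIM against VM were 3 of the 200 genes: acidic endochitinase, Kunitz-like protease inhibitor and Solyc06g054610. The last was at 2.20, 2.43 and 1.79 RPKM in slful VM and 4.65, 2.43 and 2.73 in slful SFIM (0.48 ± 0.20, limma adjusted p 0.0609), and at TM and FIM all its slful libraries, from 3.25 to 11.1 RPKM, lay above VM. At TM 8 genes and at FIM 8 genes were not called. Acidic endochitinase, Kunitz-like protease inhibitor and Kunitz trypsin inhibitor were in both of those groups of 8. The other described genes not called were Leucine aminopeptidase A1, LOB domain-containing protein and Unknown protein Solyc10g050990 at TM, and at FIM Alcohol dehydrogenase (1.91 ± 1.04) and the gene described as DNA polymerase epsilon catalytic subunit A (2.52 ± 1.05). These FIM results depended on the setting. Of 17 settings, Alcohol dehydrogenase passed the threshold at FIM in 3, the polymerase gene in 6 and Kunitz trypsin inhibitor in 9.

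Of the 163 genes without a description, 161 were called higher than VM in slful TM, 160 in FIM and 162 in SFIM. The gene with the highest score, Solyc01g067540, was at 0, 0.241 and 0.0348 RPKM in slful VM, 47.9, 59.9 and 60.2 at TM, 96.0, 72.1 and 88.9 in the FIM libraries and 61.2, 76.2 and 54.7 at SFIM. Its WT values were 0.0670, 0 and 0.0355 RPKM at VM, 29.8, 93.3 and 56.3 at TM, and 76.2, 78.1 and 81.3 at SFIM. It was near 0 at VM and high in every later library of both genotypes. The second, Solyc02g077390, was at 0.428, 0.337 and 0.558 RPKM in slful VM, 49.1, 65.4 and 64.9 at TM, 41.7, 49.3 and 45.9 in the FIM libraries and 25.0, 25.7 and 24.3 at SFIM. In slful its SFIM libraries lay below all those of TM and FIM.

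Fewer of the 200 genes were called between the later stages than against VM. In slful FIM against TM, a comparison within an export format, 35 of the 200 genes were called higher, against 1.1% of all genes, and 1 lower, Solyc03g063100 (-1.07 ± 0.26), against 1.79%. The median over the 200 was 0.59, beside -0.06 over all genes. Of the described genes 10 were called higher, among them RING/U-box superfamily protein (3.26 ± 0.27), Patatin (2.71 ± 0.31), macrocalyx (1.07 ± 0.18) and cytokinin oxidase4 (1.24 ± 0.28), with limma adjusted p of 3.78e-05, 0.000594, 0.00627 and 0.0302. This count rests on single libraries, being 3 without slful FIM replicate 2, 9 without slful FIM replicate 3, 23 without slful TM replicate 3 and 58 without slful FIM replicate 1. Without slful FIM replicate 2 only RING/U-box superfamily protein of the 10 kept its call, and 3 of the 10 kept it without slful FIM replicate 3.

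In slful SFIM against FIM, 1 gene was called higher, Solyc04g074700 (0.83 ± 0.18), against 0.892% of all genes, and 4 lower, against 1.68%. The 4 were Patatin (-1.45 ± 0.29), Solyc10g052470 (-1.99 ± 0.40), Solyc02g077390 (-0.85 ± 0.18) and Solyc02g084680 (-0.89 ± 0.21). At an unadjusted p under 0.05 limma gave 10 of the 200 higher and 18 lower, against 4.92% and 6.2% of all genes, so that the share higher was near the background, and voom gave 7 and 17 at its adjusted p. Of the 200, limma called 0 without slful FIM replicate 2 or 3, 18 without slful FIM replicate 1 and 10 without slful SFIM replicate 1. Patatin was at 31.4 to 57.9 RPKM in slful FIM and 11.7 to 17.5 in slful SFIM, while in WT the ranges overlapped, at 16.9 to 25.2 and 17.3 to 28.8.

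The stage with the highest mean differed between genotypes as a description. In WT 6 of the 200 genes were highest at TM, 67 at FIM and 127 at SFIM, and in slful 18, 110 and 72. Over the eligible genes in slful, 34.1% were highest at VM, 26.7% at TM, 19.7% at FIM and 19.6% at SFIM. Over the eligible genes in WT those shares were 28.1%, 29.1%, 22.7% and 20.2%. The rule itself kept the 200 genes from being highest at VM in WT. The median of log2 slful over WT across the 200 genes was 0.01 at VM, 0.14 at TM, 0.13 at FIM and -0.11 at SFIM, beside 0.01, -0.03, -0.07 and 0.02 over eligible genes. The WT libraries in this comparison chose the genes, so nothing more is read from it.

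The authors' deposited table for slful against WT lists 13 of the 200 genes for VM, of which 11 were higher in slful and 2 lower, where it lists 103 and 27 genes in all, 0.302% and 0.0792% of the 34075. For TM the authors' deposited table holds 6 of the 200 higher and 1 lower (0.302% and 0.0616% of all genes), for FIM 17 and 2 (0.534% and 0.0998%) and for SFIM 1 and 5 (0.282% and 0.0734%). Of the 37 genes on those sheets, 30 are on 1 sheet, 6 on 2 sheets and FRUITFULL-like MADS-box 1 on 3. In the authors' deposited table the log2 fold change of FRUITFULL-like MADS-box 1 was -1.08 at TM, -1.41 at FIM and -1.33 at SFIM. That of Early nodulin-93 was 1.67 at TM and 2.21 at FIM, in the authors' deposited table. In the limma fit of all 24 libraries, 13 of the 200 were called higher and 3 lower in slful VM against WT VM, against 1.31% and 0.351% of the 18786 genes tested. For TM the counts were 3 and 1, against 0.245% and 0.122%, for FIM 0 and 2, against 0.0798% and 0.0479%, and for SFIM 3 and 4, against 1.65% and 0.431%. With the replicate number as a block, the TM counts were 12 higher and 1 lower. At an unadjusted p under 0.05 limma gave 35 of the 200 higher and 16 lower at VM, against 8.45% and 4.24% of all genes. Those counts were 39 and 5 at TM, against 4.66% and 6.47%, 12 and 5 at FIM, against 3.02% and 8.04%, and 14 and 33 at SFIM, against 9.79% and 3.89%. Because the WT libraries chose the genes, nothing is read from these counts.

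The list of other flowering genes was given by locus, for 30 loci, of which 7 carry a deposited description and the others were placed by background knowledge alone. Of the 30, 22 were eligible for the ranking and 11 are among the 200, which were taken from 15915 eligible genes. The other 19 loci had 14 tested in slful (limma), of which 7 were higher and 3 lower at TM against VM, 7 and 3 in the FIM libraries and 9 and 4 at SFIM. Among all 18384 genes tested, 15.8% were called higher and 16.4% lower for slful TM against VM. For slful FIM against VM the shares were 9.66% higher with 13% lower, whereas slful SFIM against VM had 19.3% higher with 27.7% lower. Calls in both directions were thus found among these 14 loci. Whether their shares differ from those of all genes was not tested.

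The 200 genes were shorter than the eligible genes, with a median length of 1116 bases against 1511. The IDs place 36 of them, 18.0%, on chromosome 2, where 10.8% of the eligible genes lie. In the ID order 17 of the 200 stand directly beside another of the 200, in 10 adjacent pairs that form 7 runs. The longest run held 4 genes, Solyc07g054760 to Solyc07g054790 with Wound induced protein, and a run of 3, Solyc12g096770 to Solyc12g096790, held Alcohol dehydrogenase superfamily. Lengths and positions were not tested.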

How the data were processed

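RNA was sequenced from pooled meristems, with column extraction, DNase treatment and a TruSeq RNA kit, per the labels. The authors deposited RPKM values for 34075 genes, and no source used here gives the aligner, annotation, genome build or strandedness. Also deposited by the authors were 4 sheets of slful against WT, with a log2 fold change, a signed fold written as a score below 0 for lower genes, and an FDR p-value. The sheets list only genes past a threshold, and their test is not stated in the sources used here. Gene descriptions come from those sheets, and 0 IDs matched the reference symbols.

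RPKM values were whole multiples of 1 read for all 25568 genes above 0, with a largest distance from a whole number of 0.0092 reads. The length of each gene was searched for to make them so, a weak check for genes above 0 in few libraries. All 22590 genes above 0 in at least 6 libraries were among them. Recovered reads gave depth, lengths and zeros. Counting limits are 3 reads per library and cover counting error only. Tests were run in limma (version 3.58.1, R 4.3.3) after a log2(RPKM + 0.5) transform, which understates changes of low genes. The slful fit held 12 libraries and 18384 genes that reached 0.5 RPKM in 3 or more slful libraries, moderated variances with a trend, and 1 weight per group. The fit of genotype at each stage held 24 libraries and 18786 genes. P-values were 2-sided and Benjamini-Hochberg adjusted, and genes under 0.05 were called. Scripts were tested on simulated data.

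Replicate numbers are shared between groups. Deviations of same-numbered WT and slful libraries correlated at 0.228, 0.184 and 0.155 at TM, above 0.1 in each pair. No label gives a pairing. Differently numbered WT and slful libraries reached 0.149 at TM and 0.439 at FIM, so correlations of this size do not establish a pairing. At the other stages, and between slful stages, at least 1 pair did not pass 0.1.

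The members and lists were chosen with earlier results of these data known. Named genes are the described members, the 6 whose slful score fell furthest below and the 6 furthest above the WT score, the 3 genes on each side of the threshold, and those not called at SFIM where 5 or fewer. The highest-scoring undescribed genes and the called undescribed genes of the 2 later comparisons were added after their values were seen. Python 3.11.15, numpy 2.4.6, pandas 2.3.3 and matplotlib 3.10.9 were also used. Alternatives were other pseudocounts, filters, weights, library sets, quantile normalization, the replicate block, each replicate left out, other settings of the rule and, chosen after seeing the data, voom on recovered reads.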

Additional observations from a re-analysis of the deposited data

Results flagged for a closer look

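Acidic endochitinase (Solyc05g050130) stood apart because its libraries at VM and FIM were ordered in opposite ways in the 2 genotypes. All slful FIM libraries, at 11.1, 7.43 and 8.98 RPKM, lay below all slful VM libraries, at 12.1, 14.9 and 14.5, with a log2 difference of -0.58 ± 0.48 that did not pass the test (limma adjusted p 0.420, from 0.0393 to 0.860 over the alternatives, 1 of which passed). All WT FIM libraries, at 9.61, 12.3 and 8.21 RPKM, lay above all WT VM libraries, at 2.58, 2.40 and 2.76. The difference between the genotypes was not tested, and the WT libraries had chosen the gene for its rise.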

How the results depend on the processing

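For lists of 200 genes, the slful counts against VM stayed within 1.5 times their value under every alternative run, with 182 to 195 at TM, 138 to 197 at FIM and 195 to 198 at SFIM when 1 replicate was left out. The overlap of 160 genes with the slful list was 158 to 162 when 1 replicate was left out. With the first 100 or 400 genes in place of 200, the counts against VM were 98 and 368 for TM, 99 and 368 for FIM, and for SFIM 100 and 389, those for FIM against TM 22 and 53, those for SFIM against FIM 3 and 8, and the overlaps 77 and 308, since the lists differ in size. FIM against TM went from 35 to 22 with a pseudocount of 0.1, 88 with no weights and 91 by voom, which was chosen after seeing the data, and ran from 3 to 58 with 1 replicate left out. SFIM against FIM went from 5 to 3 with a pseudocount of 0.1, 21 with no weights, 3 in the 24-library fit, 15 in the 6 libraries alone, 9 after quantile normalization and 24 by voom, and from 0 to 18 with 1 replicate left out.

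Against WT, VM went from 16 to 10 with a pseudocount of 1, 6 with no weights, 3 in 6 libraries and 7 to 21 with 1 replicate left out. TM went from 4 to 2 with a pseudocount of 0.1, 8 with no weights, 0 in 6 libraries and 0 to 15 with 1 left out. FIM went from 2 to 1 with a pseudocount of 0.1, 6 with no weights and 0 to 3 with 1 left out, and SFIM from 7 to 2 with no weights, 1 in 6 libraries and 4 to 20 with 1 left out. With the replicate block the TM count was 13 and the FIM count 0, the slful counts against VM were 193, 193 and 197, and FIM against TM gave 40; it moved no other count by over 1.5 times. The numbers did not pair the samples at FIM.

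Kunitz-like protease inhibitor ran from -0.51 to 0.18 at TM, where it was 0.09 and 0.15 without slful VM replicates 2 and 3 and 0.18 and 0.16 without slful TM replicates 2 and 3. At FIM it ran from -0.10 to 0.73, with -0.09 without slful VM replicate 1 and -0.10 without slful FIM replicate 3. Acidic endochitinase at SFIM ran from -0.15 to 0.37. The cause was not tested. Of the described genes called against VM, 24 of 31 at TM, 20 of 32 at FIM and 33 of 35 at SFIM kept the call under every alternative, and without slful FIM replicate 2 12 lost it at FIM. The planned count tests were not run, since the deposited unit is RPKM. The smallest detectable difference was not tested.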
